A study of Mus musculus with 67 samples.

Results

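The rows described here are those whose mean level was higher with both of 2 stimuli in wild-type (WT) mouse microglia grown in culture. Microglia are the immune cells that reside in the brain. For every row of the culture count table, log2(CPM + 1) was averaged over the WT libraries of each treatment. CPM is a row's count scaled to a common library total. The rows were chosen by these WT values: a row was taken when its mean was at least 2 log2 units above vehicle both with thapsigargin plus PDBu (Tg+PDBu) and with LPS. This held for 60 of 45707 rows, of which 28306 had a count in any culture library. Up to 200 rows would have been kept, so the ranking by the smaller of the 2 responses left none out. No gene names accompany the deposited counts, and each row goes here by its position in the table. Roles, sequences and positions in the genome are therefore not given, and neither the targeted gene nor markers of microglia or other cell types could be looked up.

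Thapsigargin blocks the pump that fills the calcium stores of the endoplasmic reticulum, and emptied stores open the store-operated calcium channel, whose pore is formed by Orai1. Calcium entering this way activates calcineurin and NFAT, while PDBu, a phorbol ester, activates protein kinase C. LPS, a component of the bacterial outer membrane, acts on Toll-like receptor 4 and induces cytokines and other inflammatory genes in microglia through NF-kB and interferon signalling.

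KO mice were Orai1fl/fl Cx3CR1-cre/ERT2, with a tamoxifen-inducible Cre expressed from a locus active in microglia and other myeloid cells, and WT mice were Orai1fl/fl without the Cre. All groups received tamoxifen, so an effect of Orai1 loss cannot be told apart from one of the active Cre. Cultures were made from the hippocampus of pups of both sexes at postnatal day 2 to 5, received 1 µM OH-tamoxifen, and were treated for 6 h with 0.2 µM Tg and 50 nM PDBu, with 10 ng/ml LPS or with DMSO as vehicle. There were 5 KO libraries with Tg+PDBu, 5 KO libraries with LPS and 6 KO libraries with vehicle, and 6 WT libraries for each treatment. The other table held 33 libraries of microglia that the labels describe as FACS-purified from whole brains. Their donors were 10 to 12 weeks old and had last received tamoxifen 30 to 35 days earlier. These mice were injected with LPS at 1 mg/kg or with PBS as vehicle. At 24 h after LPS there were 7 KO and 8 WT libraries of both sexes, at 6 h there were 3 KO and 3 WT libraries, all from males, and with vehicle there were 6 KO and 6 WT libraries of both sexes.

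Culture libraries totalled 7868694 to 16070721 counts each, and sorted libraries 4989974 to 7596706. The same row number was taken to be the same gene in both tables, because the Spearman correlation of mean levels over rows was 0.853 with the tables aligned and 0.328 to 0.347 with one table moved by 1 to 3 rows. Nothing in the labels says that libraries of a group came from separate litters or animals, so p-values measure the spread between these libraries. In such bulk samples, fewer cells of a type and less RNA per cell cannot be told apart. In sorted males, 2 of the 6 libraries taken at 6 h after LPS were about as close to the vehicle mean as the male vehicle libraries were. Over 15290 tested rows outside the 60, the root mean square log2 distance to the vehicle mean of the same genotype was 0.790 in KO male replicate 1 and 0.766 in WT male replicate 3, against 1.07 to 1.13 in the other 4 and 0.732 to 1.01 in the male vehicle libraries. Results at 6 h are also given without the KO or WT library concerned. In culture, the 3 libraries of WT female replicate 3 went against their label. Summed over 4 rows that averaged at least 5 CPM in sorted males and at least 50 times their mean in sorted females, these libraries stood at 77.5 to 105 CPM. The male cultures stood at 146 to 260 CPM and the other female cultures at 0 to 8.15 CPM. Without that culture the rule took 64 rows, 59 of the 60 among them. A first definition of the male rows, on every single library, had found 0 rows.

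In WT cultures the median rise of the 60 rows was 2.78 log2 units with Tg+PDBu and 3.93 with LPS. These values chose the rows and are given as a description. LPS gave the larger rise in 43 rows and Tg+PDBu in 17. A difference of at least 2 log2 units between the responses set apart 17 rows as LPS-leaning and 1, row 5883, as Tg+PDBu-leaning, and 42 rows were balanced. The 3 rows nearest to the limit had a smaller response of 2.02, 2.05 and 2.06, and the next 3 rows, left out, had 1.99, 1.99 and 1.94. The rows were above vehicle with LPS in each of the 6 WT cultures, 60 of 60, and with Tg+PDBu in 5 of them. In the culture of WT female replicate 2, 54 of the 60 were above vehicle with Tg+PDBu, 42 reached 2 log2 units and the lowest value was -1.77. Of rows that reached 2 with Tg+PDBu, 261 in all, the 60 were 23.0%, and of the 404 that reached it with LPS they were 14.9%.

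The 2 rows with the largest smaller response were row 6097 and row 16627. Row 16627 had a lowest, median and highest level of 771, 848 and 1559 CPM with Tg+PDBu in WT cultures, and of 2552, 5306 and 6262 CPM with LPS, against 4.50, 12.0 and 66.1 CPM with vehicle. Row 6097 had 70.3, 151 and 318 CPM with Tg+PDBu and 427, 2432 and 3226 CPM with LPS, against 0.486, 0.563 and 6.12 CPM with vehicle. The vehicle level of both rows was highest in WT female replicate 2, and in neither row did a stimulated library overlap the vehicle libraries.

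As a group, the 60 rows took a share of the library that differed with genotype. With Tg+PDBu they held 0.590% to 0.851% of the counts in KO cultures and 1.33% to 1.79% in WT cultures. With LPS they held 1.15% to 2.26% in KO cultures and 2.75% to 6.79% in WT cultures. With vehicle they held 0.104% to 0.137% in KO cultures and 0.102% to 0.193% in WT cultures. The genotypes therefore overlapped at rest and did not overlap under either stimulus. Because the WT libraries chose the rows, rows that happened to be high in them under stimulation or low in them with vehicle were favoured. The lower KO shares are therefore a description and were not tested. The 5 most abundant of the 60 rows held 40.8% to 45.5% of the rows' counts in KO cultures with LPS and 47.9% to 50.3% in WT cultures with LPS.

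**Figure D1:**
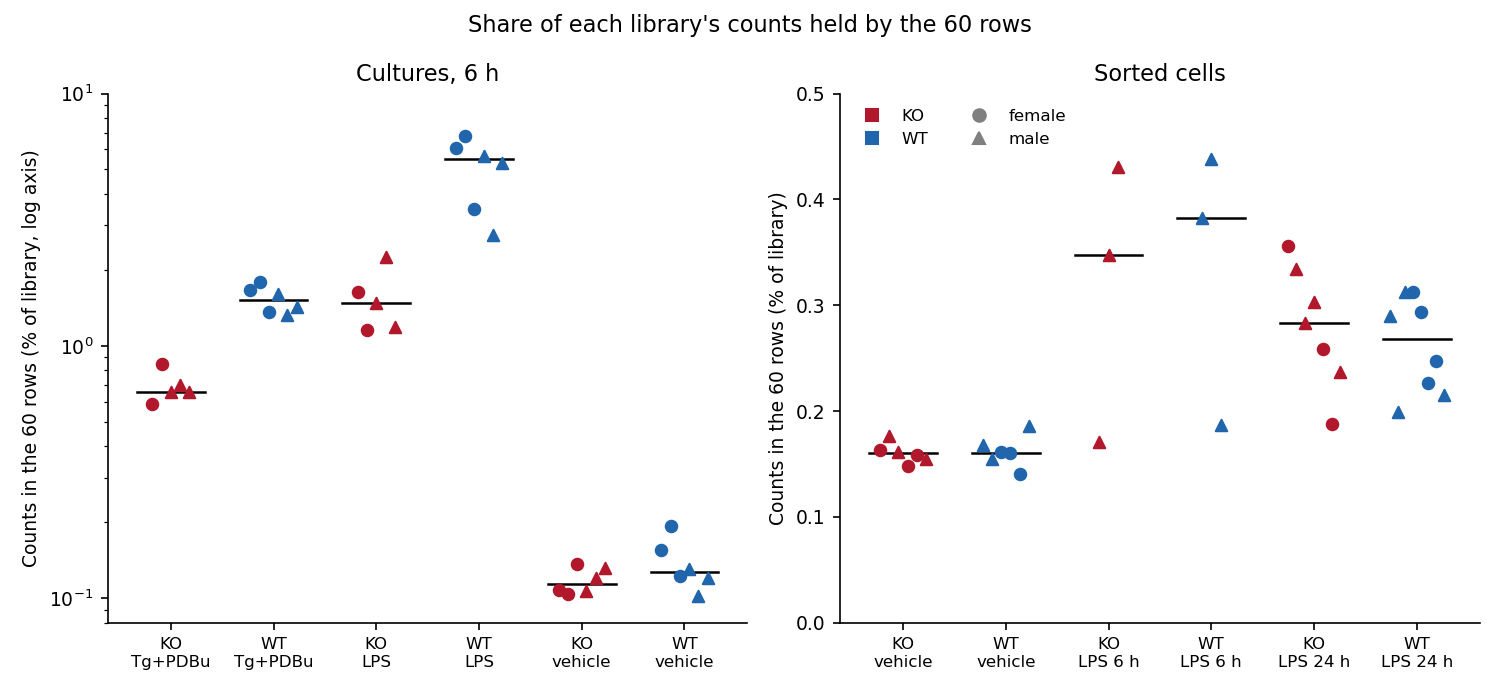
Share of each library's counts held by the 60 rows, in cultures on a log axis (left) and in sorted cells on a linear axis (right). Each point is a library, circles are females, triangles are males and bars are medians. In cultures the stimulated libraries of both genotypes lie above all vehicle libraries, while in sorted cells KO male replicate 1 at 6 h, with 0.171%, lies among the vehicle libraries and WT male replicate 3, with 0.187%, lies just above them.

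KO cultures were not used to choose the rows. With Tg+PDBu, 55 of the 60 rows were higher than with vehicle in KO cultures and none was lower (edgeR quasi-likelihood test, Benjamini-Hochberg adjusted p under 0.05), where 17.9% of all 15979 tested rows were higher. The median log2 fold change of the 60 was 2.27, against -0.23 over all tested rows. All 60 rows passed the filter on low counts. That filter took all culture libraries, and the rule had already set these rows high in stimulated WT libraries, so passing it is no result. With vehicle, 12 of the 60 averaged below 1 CPM in KO cultures. All 60 had a positive fold change. At an unadjusted edgeR p under 0.05 there were 55 higher and 0 lower, and DESeq2 called 57 higher and 0 lower. By the adjusted edgeR call, 30.9% of all tested rows were lower. Every KO library with Tg+PDBu was above every KO vehicle library in 50 of the 60 rows, which was so in 16% of all tested rows. Every one was below in 0 of the 60, against 19.9% of all tested rows.

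Row 16627 had 128, 368, 152, 261 and 154 CPM in the 5 KO libraries with Tg+PDBu, against a lowest, median and highest level of 0.456, 1.29 and 4.16 CPM in the 6 with vehicle. The groups lay far apart. The log2 fold change was 7.01 ± 0.60 (SE, edgeR adjusted p = 5.84e-10). Row 17520 had 160, 422, 317, 368 and 333 CPM with Tg+PDBu, against 0.332, 2.79 and 12.0 CPM with vehicle, and rose by 6.19 ± 0.53 log2 units (edgeR adjusted p = 7.72e-10). In this row the KO cultures with Tg+PDBu were above all but 1 of the WT cultures with Tg+PDBu, which had 39.2, 65.9 and 165 CPM as lowest, median and highest level. Row 17520 was the one row whose mean response to Tg+PDBu was larger in KO cultures than in WT cultures by 1 log2 unit or more.

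The 5 rows not called with Tg+PDBu in KO cultures are named after their values were seen. They were rows 75, 5782, 6073, 6096 and 19118, with log2 fold changes of 1.53 ± 0.84, 0.86 ± 0.46, 0.35 ± 0.65, 2.13 ± 1.09 and 0.85 ± 0.69 (SE) and edgeR adjusted p of 0.136, 0.130, 0.681, 0.110 and 0.324. Among them, row 6096 had 0.547, 2.49, 0.575, 1.69 and 0.212 CPM in KO cultures with Tg+PDBu, against at most 0.912 CPM in the KO vehicle libraries. In WT cultures it had 13.2 to 51.1 CPM with Tg+PDBu. The KO libraries with Tg+PDBu thus lay below all WT libraries with Tg+PDBu in this row. High WT values with Tg+PDBu were a condition of the rule, so this is a description and was not tested.

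With LPS, 58 of the 60 rows were higher than with vehicle in KO cultures and none was lower (edgeR), where 8.71% of all tested rows were higher and 14.1% were lower. At an unadjusted edgeR p under 0.05 all 60 were higher, and DESeq2 called 60 higher and 0 lower. The median log2 fold change was 3.22, against -0.14 over all tested rows. This comparison and that with Tg+PDBu share the 6 KO vehicle libraries, so their counts are given side by side and are not independent. In 58 of the 60 rows every KO library with LPS was above every KO vehicle library, which was so in 6.03% of all tested rows, and in 0 rows was every one below, against 11.1%. The 17 LPS-leaning rows were all higher, with a median of 6.74, as were 41 of the 42 balanced rows, with a median of 2.73.

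Row 6096 had 738, 427, 648, 1437 and 401 CPM in KO cultures with LPS, against 0 to 0.912 CPM with vehicle, and rose by 11.41 ± 0.83 log2 units (edgeR adjusted p = 1.32e-10). It held 17 counts in all over the 6 KO vehicle libraries, so the size of the rise rests on few counts. Row 16627 had 1644, 1104, 1456, 2343 and 1023 CPM with LPS and rose by 9.88 ± 0.65 log2 units (edgeR adjusted p = 1.89e-11). No library with LPS came near the vehicle libraries in either row. Row 15518 had 0 counts in all 6 KO vehicle libraries. Set against 3 counts over that group, it was at least 76.5-fold higher with LPS and at least 54.4-fold higher with Tg+PDBu. It had 0 counts with vehicle in sorted KO and WT cells too. Setting this row to its bound left the medians of 2.27 and 3.22 as they were.

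The 2 rows not called with LPS in KO cultures, named after their values were seen, were row 1942 at 0.55 ± 0.22 and row 5883 at 1.26 ± 0.47 log2 units (SE, edgeR adjusted p = 0.0698 and 0.0561). With RLE size factors in place of TMM both were called, which gave 60 of 60. The same count was found without WT female replicate 3's culture, an alternative chosen after seeing the data. RLE moved the median of all tested rows by more than 0.1 with both stimuli, to -0.10 with Tg+PDBu and -0.03 with LPS. Over all rows, RLE gave 3535 higher and 3862 lower with Tg+PDBu, against 2862 and 4940 with TMM. With LPS it gave 1919 higher and 1461 lower, against 1391 and 2256 with TMM. Under either scaling 0 of the 60 rows were called lower.

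**Figure D2:**
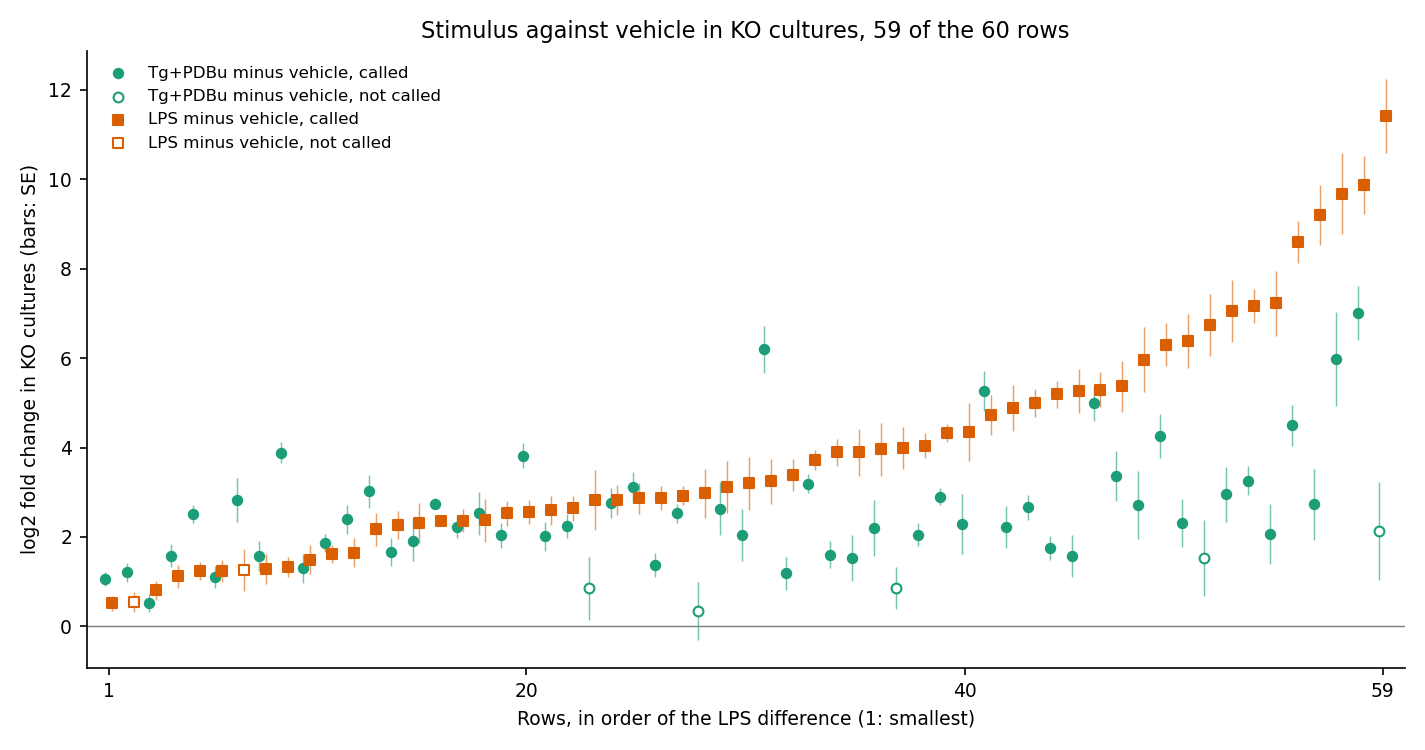
Log2 fold change against vehicle in KO cultures for 59 of the 60 rows, with SE bars, in order of the LPS value. Filled symbols passed an edgeR adjusted p of 0.05, circles are Tg+PDBu, squares are LPS, and row 15518 is left out because it had 0 counts with vehicle. The LPS values spread further upward than the Tg+PDBu values, and row 17520 is the circle at 6.19.

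The order of the stimuli in WT cultures was also tested in KO cultures. Directly compared, Tg+PDBu was lower than LPS in 29 of the 60 rows and higher in 8 (edgeR), where 22.6% of all tested rows were lower and 18.8% were higher. The stimuli did not overlap in some rows. Tg+PDBu lay below LPS in 25, against 14.3% of all tested rows, and above it in 9, against 17.9%. Of the 17 rows that leaned to LPS in WT cultures, 16 were lower with Tg+PDBu than with LPS in KO cultures, with a median of -3.70. The 42 balanced rows split into 13 lower, 7 higher and 22 that did not pass, with a median of -0.40. The Tg+PDBu-leaning row 5883 was higher by 1.56 ± 0.50 log2 units (edgeR adjusted p = 0.0137), with 92.4 to 236 CPM with Tg+PDBu and 28.72 to 58.98 CPM with LPS in KO cultures, against 9.68 to 27.4 CPM with vehicle. The count of 8 higher became 4 when KO female Tg+PDBu replicate 2 was left out and 5 when KO female LPS replicate 2 was.

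Row 6096 had 0.212 to 2.49 CPM with Tg+PDBu against 401 to 1437 CPM with LPS in KO cultures, a difference of -9.28 ± 0.83 log2 units (edgeR adjusted p = 1.64e-09). Row 7268 had 1.86, 4.72, 0.903, 3.01 and 1.38 CPM with Tg+PDBu against 267, 169, 206, 252 and 123 CPM with LPS, a difference of -6.47 ± 0.62 (edgeR adjusted p = 4.88e-09). In both rows the stimuli did not overlap. In the other direction, row 17520 had 15.3 to 99.2 CPM with LPS, below all its values with Tg+PDBu, and differed by 2.95 ± 0.50 (edgeR adjusted p = 3.14e-05). Row 11916 had 445 to 518 CPM with Tg+PDBu against 54.3 to 95.8 CPM with LPS, and differed by 2.55 ± 0.24 (edgeR adjusted p = 4.45e-09). Its level with Tg+PDBu was close in both genotypes, at 478 CPM as mean of the KO cultures and 453 CPM as mean of the WT cultures.

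Set side by side on the scale of the rule, the KO response to Tg+PDBu was below the WT response in 51 of the 60 rows, with medians of 2.10 in KO and 2.78 in WT cultures. The KO response to LPS was below the WT response in 51 rows as well, with medians of 2.89 in KO and 3.93 in WT cultures. The gap was 1 log2 unit or more in 26 rows with Tg+PDBu and in 31 rows with LPS. In KO cultures 27 of the 60 rows reached 2 log2 units with both stimuli, and the same thresholds applied to KO means over the whole table gave 37 rows. Since WT values chose the rows, these counts are a description with no test.

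Row 6097 had the widest gap with Tg+PDBu. It had 8.54, 27.2, 5.17, 8.67 and 4.99 CPM in KO cultures with Tg+PDBu, below the 70.3 to 318 CPM of the WT cultures. Those WT values helped to choose the row, so this gap too is a description. With LPS it had 411, 235, 334, 672 and 176 CPM in KO cultures and 427 to 3226 CPM in WT cultures, so the genotypes overlapped there. Within KO cultures it still rose, by 2.07 ± 0.67 log2 units with Tg+PDBu (edgeR adjusted p = 0.013) and by 7.23 ± 0.73 with LPS (edgeR adjusted p = 2.79e-08).

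**Figure D3:**
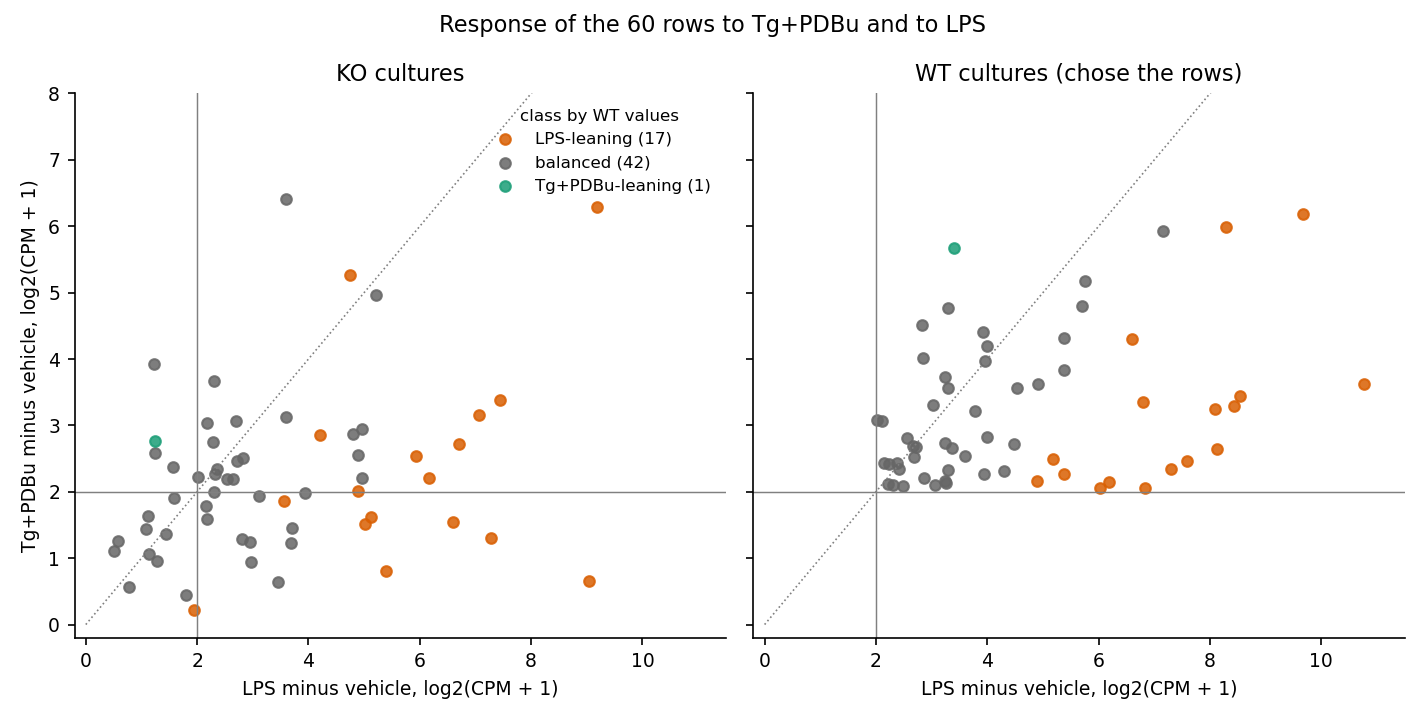
Response to Tg+PDBu (vertical) against response to LPS (horizontal) in KO cultures (left) and WT cultures (right), each a difference of mean log2(CPM + 1) from vehicle, with 1 point per row, colours for the classes set in WT and solid lines at 2. The WT panel is empty left of and below the lines by construction, and in the KO panel 27 rows lie above both lines.

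Male and female KO cultures gave no called difference in response in any of the 60 rows, for Tg+PDBu or for LPS (edgeR), where 0% of all tested rows were called. At an unadjusted edgeR p under 0.05, 0 rows differed for Tg+PDBu and 1 for LPS, and DESeq2 called 0 for both. KO females had 2 libraries per stimulus, which limits this comparison.

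In sorted cells, after LPS in the living animal, the same 60 rows held 0.187% to 0.356% of the counts in KO cells 24 h after LPS, and 0.148% to 0.176% in KO cells with vehicle. In WT cells they held 0.199% to 0.312% at 24 h and 0.140% to 0.186% with vehicle. Of the 60, 54 passed the filter on low counts in this table, which a row low with vehicle could do through LPS libraries alone. The other 6 had at most 32 counts in any sorted library. They include row 17520 and row 7268, which reached at most 2 counts in any sorted library against up to 422 and 794 CPM in culture. The tables differ in age, tissue, RNA input and library kit, and in the molecule the labels name, polyA RNA in culture and total RNA in sorted cells, so levels of a row were not tested between them.

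At 24 h after LPS, 30 of the 54 rows were higher and 1 was lower than with vehicle in KO cells (edgeR), where 12.6% of all 15344 tested rows were higher and 10.8% were lower. In WT cells 32 were higher and 2 were lower, where 14.1% of all tested rows were higher and 11.9% were lower. The median log2 fold change was 1.21 in KO cells and 1.39 in WT cells, against -0.01 and 0.00 over all tested rows. Every library at 24 h was above every vehicle library in 19 of the 54 rows in KO cells, which was so in 4.42% of all tested rows. The count was 19 in WT cells too, against 3.95% of all tested rows. Every library at 24 h was below every vehicle library in 1 row in KO cells, against 6.63% of all tested rows, and in 0 rows in WT cells, against 7.63%. KO and WT have vehicle libraries of their own, and 29 rows were higher in both, which is 96.7% of the 30 in KO and 90.6% of the 32 in WT cells. Over all tested rows, 1528 were higher in both, which is 79% of those higher in KO and 70.8% of those higher in WT cells.

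By class, 9 of 15 tested LPS-leaning rows were higher in KO cells and 10 of 15 in WT cells, with medians of 2.15 and 2.18. Of 38 tested balanced rows, 20 were higher in KO cells and 21 in WT cells, with medians of 0.98 and 0.86. Among the 58 rows that LPS raised in KO cultures, 29 were higher in sorted KO cells at 24 h, 22 did not pass, 1 was lower and 6 were not tested. Of the 52 tested in both tables these 29 are 55.8%, where 436 of 1196 rows raised by LPS in KO cultures, or 36.5%, were higher in sorted KO cells.

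Apart from row 15518, with its 0 counts with vehicle, row 5782 had the largest rise at 24 h in both genotypes. In KO cells it had a lowest, median and highest level of 4.36, 23.1 and 61.6 CPM at 24 h, against 0, 0.0769 and 1.08 CPM with vehicle. In WT cells it had 1.14, 66.1 and 130 CPM at 24 h, against 0, 0.154 and 1.04 CPM with vehicle. No vehicle library of this row held more than 7 counts, so it passed the filter on low counts only through libraries with LPS. Entry of such a row depends on its rise, and it is among the rows counted as higher. The groups did not overlap in either genotype, and in WT cells the lowest library, male replicate 2, came close to the vehicle range. The rise was 7.27 ± 1.34 log2 units in KO and 7.71 ± 1.25 in WT cells (edgeR adjusted p = 0.000224 and 4.1e-05). In cultures this row was among the 5 not called with Tg+PDBu in KO.

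Row 19118 had 3.58, 7.66 and 12.7 CPM at 24 h in KO cells, against 0, 0.149 and 2.60 CPM with vehicle, and 2.44, 10.1 and 20.04 CPM at 24 h in WT cells, against 0, 0.234 and 0.988 CPM with vehicle. Here too no library at 24 h overlapped the vehicle libraries, and the row could not have passed the filter without libraries with LPS. It rose by 4.25 ± 0.92 log2 units in KO and by 5.03 ± 0.95 in WT cells (edgeR adjusted p = 0.00111 and 0.000228). Within library numbers 3376 to 3402 the rise in KO cells did not pass, at 3.81 log2 units (edgeR adjusted p = 0.084).

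Some rows moved against their direction in culture. Row 5178 rose by 9.68 ± 0.89 log2 units with LPS in KO cultures (edgeR adjusted p = 6.81e-09). It had 38.55 to 147.3 CPM with LPS there, against 5 counts in all over the 6 KO vehicle libraries, so the size of the rise rests on few counts. In sorted WT cells it had 0.326, 1.66 and 3.18 CPM as lowest, median and highest level at 24 h, against 2.67, 5.25 and 7.42 CPM with vehicle. It fell by 1.56 ± 0.46 log2 units in WT cells (edgeR adjusted p = 0.0122), while the change of -1.09 ± 0.47 in KO cells did not pass (edgeR adjusted p = 0.096). Row 28703, named after its values were seen, fell in both genotypes at 24 h, by 4.11 ± 0.87 log2 units in KO and by 2.41 ± 0.72 in WT cells (edgeR adjusted p = 0.00097 and 0.0138), and held 2 counts in all over the 4 male KO libraries at 24 h. Within each of the 2 runs of library numbers that hold the 24 h and vehicle libraries, 3299 to 3315 and 3376 to 3402, 0 rows were called lower in either genotype. Within the second run 16 rows were higher in KO cells. The 1 lower row in KO cells became 2 without female replicate 1 or male replicate 1 at 24 h, or without male vehicle replicate 2 or 3.

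The change at 24 h was not called different between KO and WT cells in any of the 54 rows (edgeR), where 0% of all tested rows were called. At an unadjusted edgeR p under 0.05, 2 of the 54 differed, and DESeq2 called 0. The median difference in response, KO minus WT, was 0.00 log2 units. Set at one treatment, 0 of the 54 rows differed between KO and WT cells with vehicle, at 24 h or in males at 6 h (edgeR), where 0.0196%, 0.013% and 0.00652% of all tested rows were called higher and 0.00652%, 0.00652% and 0.013% lower. At an unadjusted edgeR p under 0.05 there were 1, 3 and 1 of the 54, and DESeq2 called 0 in each. Male and female mice gave 0 called differences in the response at 24 h (edgeR), where 0% of all tested rows were called, with 2 of the 54 at an unadjusted p under 0.05 and 0 by DESeq2.

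In males at 6 h, 13 of the 54 rows were higher and 0 lower than with vehicle in KO cells (edgeR), where 4.27% of all tested rows were higher and 2.85% were lower. DESeq2 called 22 higher and 1 lower, and 30 of the 54 had an unadjusted edgeR p under 0.05 in either direction. The share of all tested rows is not given for these looser counts, so they do not set the 54 against other rows. In WT cells 16 were higher and 1 was lower, where 6.73% of all tested rows were higher and 3.73% were lower. Every library at 6 h was above every male vehicle library in 14 rows in KO and 28 in WT cells, against 14.1% and 15.9% of all tested rows, and below in 1 row each, against 7.87% and 9.97%. The medians were 1.09 in KO and 1.33 in WT cells, against -0.01 and -0.02 over all tested rows. The library close to vehicle held the lowest level in all 13 rows in KO cells and in all 16 in WT cells. Without KO replicate 1 the KO count was 25, where 7.66% of all tested rows were higher, the median was 1.42 and 34 rows lay above every vehicle library, against 25.9% of all tested rows. Without WT replicate 3 the WT count was 20, where 9.76% were higher, the median was 1.61 and 36 rows lay above, against 26.8%. In either case 2 rows lay below, against 18.9% of all tested rows in KO and 22.4% in WT cells. Leaving out another library at 6 h or with vehicle gave 2 to 8 rows higher in KO and 4 to 8 in WT males. With the 2 groups of a comparison fitted alone 0 rows passed. All 6 libraries at 6 h carry numbers outside the runs of the others, and no vehicle library has a number near theirs. An effect of LPS at 6 h, or of time after LPS, therefore cannot be told apart from one of the run of library numbers.

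Row 5883, the row that leaned to Tg+PDBu in culture, had the largest rise at 6 h among called rows with a count in the vehicle males. It could not have passed the filter on low counts without libraries with LPS, so its entry depends on its rise. It had 0.604, 80.5 and 93.7 CPM in KO males at 6 h, against 0.461, 0.170 and 1.04 CPM with vehicle. In WT males it had 74.3, 121 and 11.9 CPM at 6 h, against 4.09, 1.00 and 0.742 CPM with vehicle. KO replicate 1 lay within the vehicle range, whereas in WT males all 3 libraries lay above it. The rise was 6.53 ± 1.19 log2 units in KO and 5.05 ± 1.05 in WT males (edgeR adjusted p = 0.00311 and 0.00292). Without the library close to vehicle it was 7.13 ± 0.93 in KO and 5.55 ± 1.02 in WT males (edgeR adjusted p = 4.15e-05 and 0.000349). With the compared groups fitted alone the rise in WT males did not pass (edgeR adjusted p = 0.0645), and in KO males the row did not pass the filter on low counts. At 24 h the row was at 5.32 to 23.6 CPM in KO and 4.22 to 30.4 CPM in WT cells.

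Row 6288 had 5.28, 79.5 and 119 CPM in KO males at 6 h, against 2.46, 2.55 and 1.04 CPM with vehicle, and rose by 4.99 ± 1.16 log2 units (edgeR adjusted p = 0.0112). Without KO replicate 1 the rise was 5.55 ± 1.11 (edgeR adjusted p = 0.00141). The call was lost without KO male vehicle replicate 3 or without replicate 2 or 3 at 6 h (edgeR adjusted p = 0.0648, 0.0509 and 0.0697), and with the groups alone (0.167). Row 9119 had 43.2, 27.5 and 3.03 CPM in WT males at 6 h, against 0.987, 1.17 and 2.37 CPM with vehicle, and rose by 3.94 ± 1.12 log2 units (edgeR adjusted p = 0.0245). Without WT replicate 3 the rise was 4.46 ± 1.11 (edgeR adjusted p = 0.00531). The call of row 9119 was lost when any other of the 6 compared libraries was left out (edgeR adjusted p = 0.0548 to 0.126) and with the groups alone (0.0852). In both rows the library close to vehicle lay lowest, yet above the vehicle libraries of its genotype and sex. Row 12389 was the one row called lower at 6 h in WT males, with 7.63, 8.32 and 2.63 CPM against 99.6, 43.9 and 30.6 CPM with vehicle, and fell by 3.30 ± 0.78 log2 units (edgeR adjusted p = 0.0074). It was no longer called without WT male vehicle replicate 1 or with the groups alone (edgeR adjusted p = 0.0504 and 0.0597), and without WT replicate 3 it fell by 2.92 ± 0.88 (edgeR adjusted p = 0.0192). Its KO males had 3.32, 9.20 and 7.74 CPM at 6 h against 27.1, 30.6 and 42.4 CPM with vehicle, and its difference of -2.39 ± 0.75 did not pass (edgeR adjusted p = 0.0515). The same row rose by 5.97 ± 0.72 log2 units with LPS in KO cultures (edgeR adjusted p = 5.16e-07). There it had 20.96 to 73.3 CPM with LPS, against 0 to 2.12 CPM with vehicle.

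**Figure D4:**
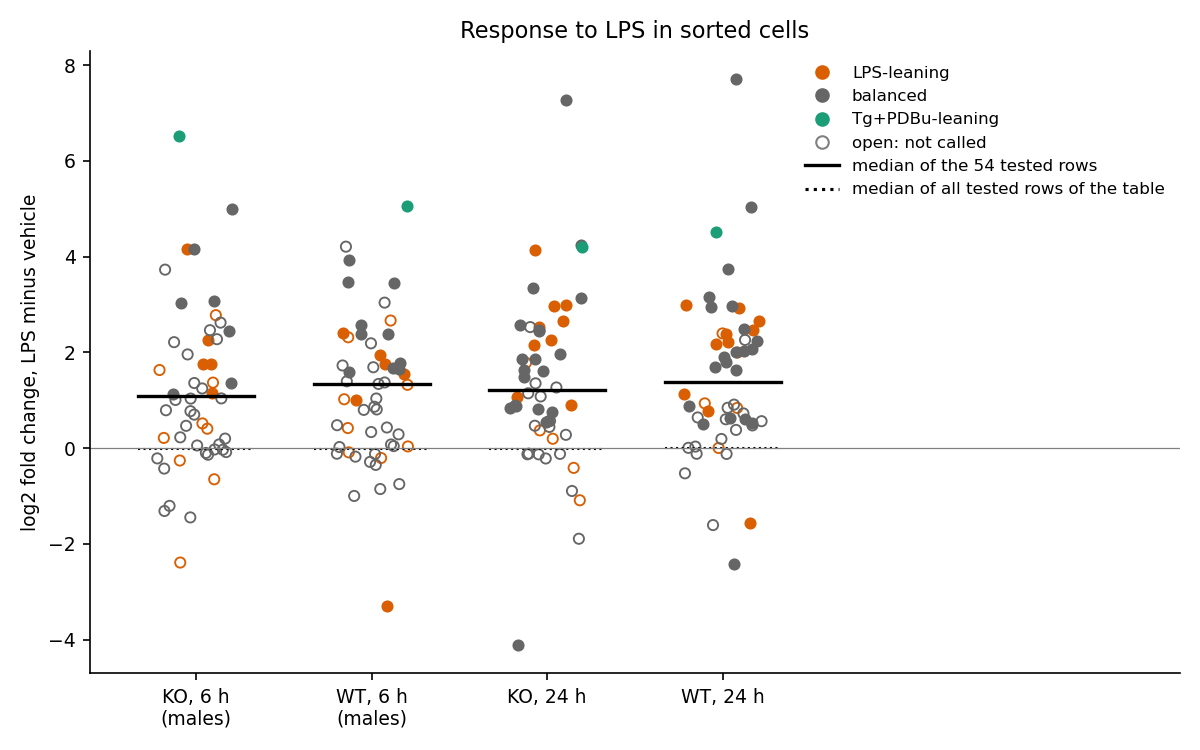
Log2 fold change of LPS against vehicle in sorted cells, 1 point per tested row among the 60, for KO and WT males at 6 h and KO and WT cells of both sexes at 24 h. Rows with 3 or fewer counts in a compared group are left out, filled points passed an edgeR adjusted p of 0.05, solid bars are medians of the 54 tested rows and dotted bars those of all tested rows. The medians of the 54 lie at 1.09 and 1.33 at 6 h and at 1.21 and 1.39 at 24 h, above the dotted bars near 0.

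The times were compared directly within males, with 6 h minus 24 h. In KO males 3 of the 54 rows were higher at 6 h and 7 were lower (edgeR), where 2.93% of all tested rows were higher and 3.55% were lower. In WT males 1 was higher and 5 were lower, where 2.28% of all tested rows were higher and 2.78% were lower. The medians were -0.23 in KO and -0.09 in WT males, against 0.03 and 0.01 over all tested rows. Every library at 6 h was below every one at 24 h in 9 rows in KO and 4 in WT males, against 6.52% and 4.83% of all tested rows, and above in 4 rows each, against 14.5% and 13.5%. Without KO replicate 1 at 6 h the KO counts were 6 higher and 4 lower, where 3.41% and 3.8% of all tested rows were. The KO median then turned to 0.11 and the WT median, without WT replicate 3, to 0.05, so the sign of both medians rests on these libraries. Without these libraries, 16 rows in KO and 17 in WT males lay above every library at 24 h, against 25.9% and 25.6% of all tested rows, and 9 and 5 lay below, against 12.3% and 12.5%. In KO males, without replicate 2 there were 4 lower, and without replicate 3 there was 1 higher. In WT males there were 3 higher without replicate 3 at 6 h, 0 lower without replicate 1, 1 lower without replicate 2, and 2 higher without replicate 2 at 24 h.

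Rows that were lower at 6 h than at 24 h included row 10028. It had 6.49, 9.35 and 4.08 CPM at 6 h in KO males, against 38.2, 53.0, 41.3 and 57.4 CPM at 24 h, and differed by -3.01 ± 0.37 log2 units (edgeR adjusted p = 9.65e-06). In WT males it had 7.97, 12.2 and 10.4 CPM at 6 h, against 30.9, 16.6, 27.2 and 36.4 CPM at 24 h, and differed by -1.63 ± 0.34 (edgeR adjusted p = 0.00611). The WT call was lost without WT replicate 1 at 6 h and with the groups alone (edgeR adjusted p = 0.0676 and 0.0776). Without the library close to vehicle the difference was -2.98 ± 0.44 in KO and -1.65 ± 0.41 in WT males (edgeR adjusted p = 0.000138 and 0.0107). Neither genotype overlapped between the times, and both lay at 6 h near their vehicle males, which had 6.30, 8.15 and 10.7 CPM in KO and 7.34, 9.35 and 7.42 CPM in WT. Row 12389 was also lower at 6 h, by -3.39 ± 0.75 in KO and -3.32 ± 0.76 in WT males (edgeR adjusted p = 0.00623 and 0.0108). Without the library close to vehicle it was -3.05 ± 0.86 in KO and -2.95 ± 0.86 in WT males (edgeR adjusted p = 0.0297 and 0.0282). The WT call was lost without WT replicate 1 or 2 at 6 h and with the groups alone (edgeR adjusted p = 0.0603, 0.0513 and 0.0502).

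In the other direction, row 5682 had 590, 684 and 317 CPM at 6 h in WT males, against 208, 288, 240 and 204 CPM at 24 h, and differed by 1.00 ± 0.18 log2 units (edgeR adjusted p = 0.00207). It was 1.26 ± 0.16 without WT replicate 3 (edgeR adjusted p = 3.81e-05) and did not pass with the groups alone (0.118). In KO males row 6288 differed by 3.22 ± 0.93 (edgeR adjusted p = 0.0359), with 4.95, 4.15, 13.2 and 3.66 CPM at 24 h. Without KO replicate 1 this was 3.79 ± 0.90 (edgeR adjusted p = 0.0104). The call was lost without replicate 2 or 3 at 6 h or without replicate 1, 2 or 4 at 24 h (edgeR adjusted p = 0.0878 to 0.184), with the replicate block (0.0575) and with the groups alone (0.0813). Row 1942 had 134, 230 and 558 CPM at 6 h in KO males, against 116, 89.3, 99.9 and 98.9 CPM at 24 h, and differed by 1.43 ± 0.34 (edgeR adjusted p = 0.00909). Without KO replicate 3, the library at 558 CPM, the difference was 0.67 and did not pass (edgeR adjusted p = 0.265), nor did it with the groups alone (0.0942). Without KO replicate 1 it was 1.81 ± 0.32 (edgeR adjusted p = 0.000818). These 3 rows were all lowest at 6 h in the library close to vehicle. Row 28703, named after its values were seen, was the other row called higher in KO males, with 82 counts over the 3 libraries at 6 h and 2 counts over the 4 at 24 h. Row 1942 in KO replicate 1 lay within its vehicle range of 89.1 to 195 CPM.

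**Figure D5:**
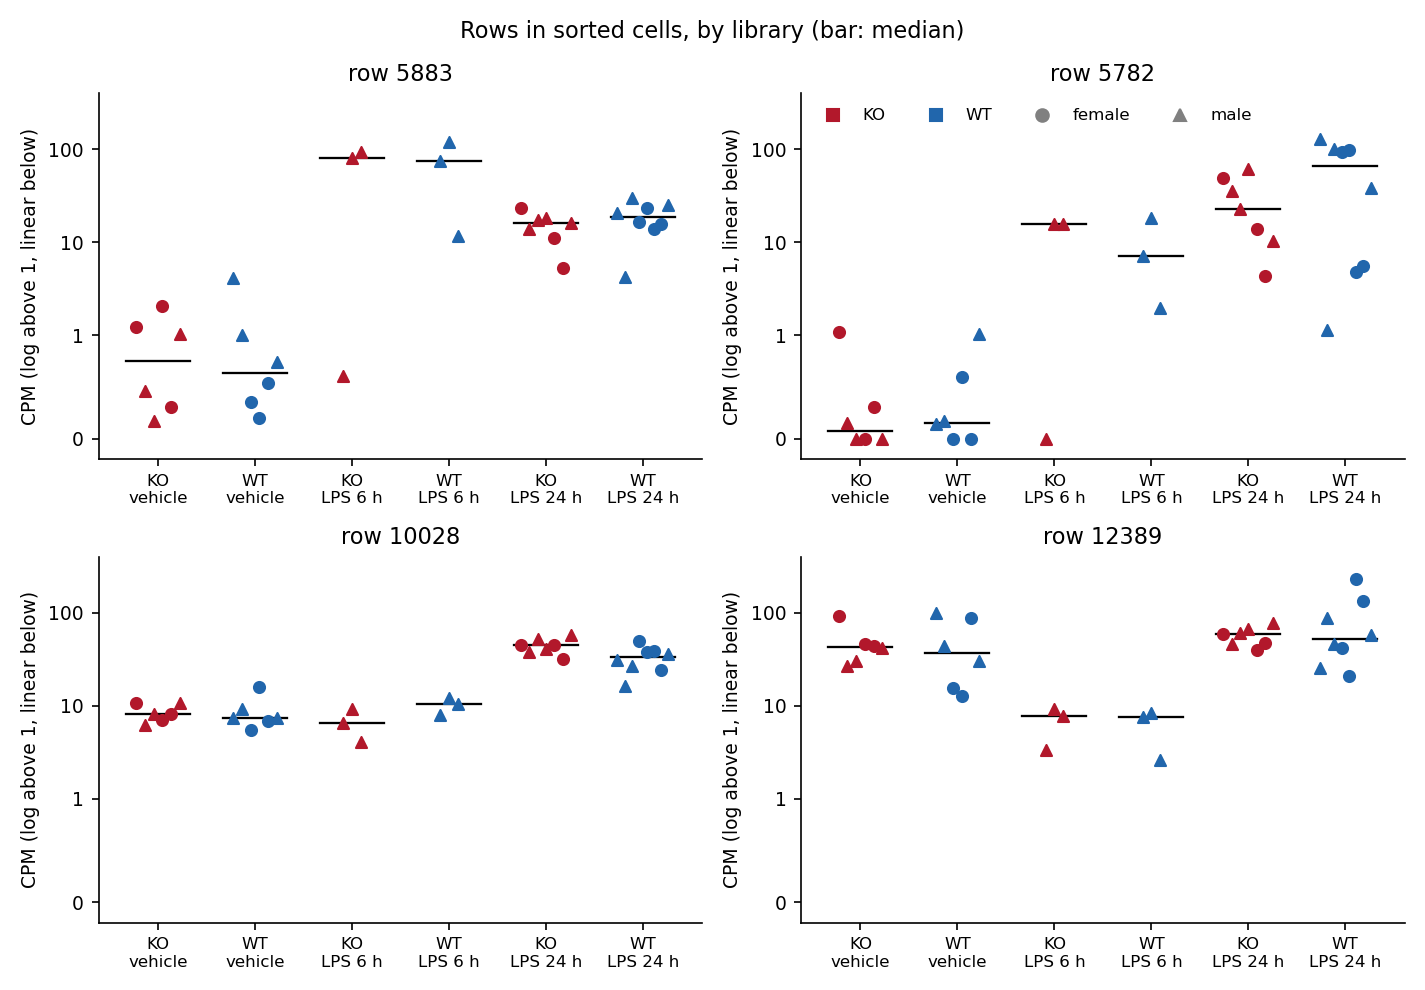
CPM of 4 of the rows in every sorted library, with vehicle, 6 h and 24 h after LPS, KO left of WT, on an axis that is linear below 1 and logarithmic above; circles are females, triangles are males and bars are medians. Row 5883 is highest at 6 h apart from 1 KO library at 0.604 CPM and 1 WT library at 11.9 CPM, row 10028 is highest at 24 h, row 5782 has its highest values at 24 h but overlaps between the times, and row 12389 is lowest at 6 h.

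The 2 rows that led the choice in culture stood at different levels in sorted cells, and no test compared them with each other. Row 6097 was already at 52.8 to 83.5 CPM with vehicle in KO cells and at 58.1 to 80.0 CPM in WT cells. At 24 h it had 101 to 134 CPM in KO and 90.6 to 122 CPM in WT cells, with no overlap, and rose by 0.89 ± 0.12 and 0.78 ± 0.11 log2 units (edgeR adjusted p = 3.18e-06 and 8.27e-06). At 6 h it had 58.5 to 66.7 CPM in KO and 59.9 to 86.2 CPM in WT males, within or near the vehicle range. Chosen after its values were seen, its difference between 6 h and 24 h was -1.17 ± 0.16 log2 units in KO and -0.67 ± 0.16 in WT males (edgeR adjusted p = 5.24e-05 and 0.0141). Row 16627 had 1.91 to 8.36 CPM in KO and 2.11 to 23.8 CPM in WT cells at 24 h, against 0.612 to 3.74 CPM and 0.534 to 3.73 CPM with vehicle. Its lowest, median and highest level in males at 6 h was 0.604, 17.5 and 30.1 CPM in KO and 2.24, 4.92 and 15.5 CPM in WT. Its rise at 24 h passed in WT cells, at 2.99 ± 0.68 log2 units (edgeR adjusted p = 0.00155), and not in KO cells, at 1.78 ± 0.67 (edgeR adjusted p = 0.0541). The difference between these responses, KO minus WT, was -1.21 ± 0.92 and did not pass either (edgeR adjusted p = 1.00).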

How the data were processed

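Each table was deposited by the authors as whole-number counts, not normalized, for 34 culture and 33 sorted libraries. The submitters' processing notes name Trim Galore 0.6.7, STAR 2.7.10a and Salmon 1.10.1 as tools, and GRCm38 as build, with no order or settings. Metadata deposited with the sorted counts describe cultured cells; the labels were followed. The filter filterByExpr (count 10, total 15) left 15979 and 15344 rows, with 99.9% and 99.8% of the counts. One edgeR 4.0.16 fit per table (R 4.3.3, TMM, two-sided quasi-likelihood F test) held a mean per group of genotype, sex and treatment, with equal weight for the sexes. Rows with a Benjamini-Hochberg adjusted p under 0.05 were called, and SE is the fold change over the root of F. The code was tested on simulated data. Members, classes and lists were chosen with earlier results of these data known. At most 2 rows each way were named per comparison, the largest changes among rows called with mean log2 CPM 1 or more and 1 direction in both sexes, and in WT cultures the 2 rows that led the rule. Within groups, chi-square per degree of freedom between libraries was at least 12.7 in culture and 11.9 in sorted cells, so none counted as a duplicate. Culture libraries carry a culture number. All 12 KO pairs with a shared number deviated together (r at least 0.116, median 0.213), so these numbers were taken as pairs, from the data alone. The main fit held no term for these pairs, so the fold changes, SE and p-values given for cultures are unpaired. The pairs entered only the alternative with a replicate block. Alternatives were RLE size factors, no filter, DESeq2 1.42.0, compared groups alone, each library left out, the replicate block, runs of library numbers and other forms of the rule. Where a count by an alternative or at an unadjusted p has no share of all rows beside it, it only checks the edgeR count.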

Additional observations from a re-analysis of the deposited data

Results flagged for a closer look

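Levels of the named rows and the 60 rows' share of counts were checked in 86 groups of 4 to 10 libraries. In 16 groups, all of named rows, a library's distance to its nearest neighbour was large for the group's range (Dixon's test at 95%). Chance flags about 1 group in 20 where values are normally distributed. In all 16 the flagged library was the highest of its group, often in a row near 0 CPM, so that share may not apply. WT female vehicle replicate 2 in culture was the highest of its group in 4 rows: row 16627 at 66.1 CPM against a median of 12.0, row 6096 at 11.8 against 0.638, row 7268 at 3.06 against 0.187 and row 6097 at 6.12 against 0.563. These levels entered the rule, and without the 3 libraries of that culture 70 rows passed it, the 60 among them. WT female replicate 2 with Tg+PDBu was at 1559 CPM in row 16627 against a median of 848. KO female replicate 2 with Tg+PDBu was at 27.2 CPM in row 6097 against a median of 8.54.

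In sorted KO cells with vehicle, female replicate 1 was at 1.08 CPM in row 5782 and at 91.8 CPM in row 12389, against medians of 0.0769 and 43.3. Female replicate 3 was at 2.60 CPM in row 19118 and at 11.6 CPM in row 6288, against 0.149 and 2.74, and male replicate 1 was at 1.38 CPM in row 9119 against 0.384. In sorted WT cells with vehicle, male replicate 1 was at 4.09 CPM in row 5883, female replicate 1 at 16.9 CPM in row 6288 and female replicate 2 at 15.8 CPM in row 10028, against 0.638, 3.18 and 7.38. At 24 h after LPS, KO female replicate 1 was at 207 CPM in row 1942 against a median of 98.9, and WT male replicate 3 was at 13.3 CPM in row 9119 against 4.64.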

How the results depend on the processing

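Of 592 counts under an alternative, with the number of rows taken by the rule among them, 550 stayed within 1.5 times of the reported count. Many of these were counts of 0 that stayed at 0, such as the differences of response and between genotypes. The 550 are therefore no measure of how stable the other counts were. Leaving out each library gave 49 to 55 rows higher with Tg+PDBu and 55 to 58 with LPS in KO cultures, 0 lower for both, and 4 to 8 higher and 25 to 29 lower with Tg+PDBu than with LPS. In sorted cells it gave 28 to 32 rows higher and 1 to 2 lower at 24 h in KO, 29 to 35 and 2 to 3 in WT, 2 to 25 higher and 0 lower at 6 h in KO, and 4 to 20 and 0 to 1 in WT. For 6 h minus 24 h it gave 1 to 6 higher and 4 to 6 lower in KO males, and 1 to 3 and 0 to 6 in WT males. Differences of response and between genotypes in sorted cells stayed at 0.

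Within library numbers 3299 to 3315 and within 3376 to 3402, 0 rows were lower at 24 h in KO or WT cells, and within the second run 16 were higher in KO cells. With the compared groups alone, 0 rows were higher at 6 h in KO males, 0 were higher and 0 lower in WT males, and 6 h minus 24 h gave 1 higher in KO males and 0 higher and 0 lower in WT males. DESeq2 gave 22 higher and 1 lower at 6 h in KO males and 2 higher for 6 h minus 24 h in WT males. Without a filter on low counts there was 1 lower at 6 h in KO males and 2 higher for 6 h minus 24 h in WT males. The cause was not tested, beyond the smaller number of libraries in some of these fits.

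With the culture number as a replicate block, 56 rows were higher with Tg+PDBu, 59 with LPS, and 7 higher and 30 lower between the stimuli in KO cultures, so no count moved by over 1.5 times. In sorted cells the title numbers did not pair the libraries, since 3 of 24 same-numbered pairs correlated over 0.1 (median -0.0016), and that block gave 30 and 31 rows higher at 24 h and 13 and 14 at 6 h, in KO and WT cells. Of 373 values of named rows, 342 kept their direction and call, 31 lost the call and 0 reversed.

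The rule itself gave 78 rows with TMM-scaled totals, 74 with a pseudocount of 0.5, 77 from male libraries alone, each holding all 60, and 50 from female libraries alone, 48 of them shared. Leaving out a WT culture gave 53 to 70 rows. With WT female replicate 3's culture out of the fit, an alternative chosen after seeing the data, KO cultures had 55 rows higher with Tg+PDBu, 60 with LPS, and 9 higher and 29 lower between the stimuli.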
